A study of Homo sapiens with 90 samples.

Results

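Cytochrome P450 enzymes are haem proteins that oxidize drugs, pollutants, fatty acids, steroids, bile acid precursors and vitamins. Here the family without its CYP1 and CYP51 branches was described in A673 cells, a human Ewing sarcoma line whose growth depends on the EWSR1-FLI1 fusion, after exposure to 3 agrichemicals. Members were the genes whose symbol has the form CYP, family number, subfamily letter and gene number, with pseudogenes and CYP1A1, CYP1A2, CYP1B1 and CYP51A1 left out, and with at least 1 probe set that the array annotation assigns to no other gene. This gave 47 genes out of 19774 with such a probe set. The 47 genes had 89 such probe sets, and each gene was read from the one whose mean signal in the 90 columns was greatest. The array held 54613 probe sets that are not controls.

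Exposure lasted 24 h, to fenbuconazole (a triazole fungicide), imazalil (an imidazole fungicide) or 2,4-D (a chlorophenoxy herbicide) at 9 concentrations between 0.001 and 10 µM, or to the solvent DMSO at 0.2%, which all treated wells also held. Each concentration of each chemical had 3 arrays, as did each chemical's DMSO columns, which gave 3 sets of 30 columns. The values were log2 signals of Affymetrix HT HG-U133+ PM arrays, normalized within each set, so levels are comparable within a set and not between sets. All groups shared 1 cell line, which limits the data to this tumour cell type. The sample titles call the DMSO columns common controls in all 3 sets, and the methods describe 3 common vehicle controls. The sample descriptions give these columns the same serial numbers in all 3 sets. With each probe set centred on its mean in a set, same-numbered DMSO columns correlated at 0.867 to 0.878 between imazalil and 2,4-D, as 1 array normalized in both would, and at 0.105 to 0.198 between fenbuconazole and either. Whether the fenbuconazole columns come from those arrays too, as the titles have it, could not be told.

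The P450s act at the endoplasmic reticulum, where cytochrome P450 reductase hands them electrons, or in mitochondria, where ferredoxin does. Several drug-metabolizing members, such as CYP2B6 and CYP3A4, are classic inducible genes of the liver: xenobiotics that bind the nuclear receptors CAR and PXR raise their transcription in hepatocytes. Azole fungicides bind the haem iron of P450 enzymes, which is how they block fungal sterol synthesis, and so the transcripts of the human family are of interest in cells exposed to them. The members fell by role into 14 of xenobiotic metabolism (CYP2A, 2B, 2C, 2D, 2E, 2F, 2S, 2W and 3A), 14 of fatty acid and eicosanoid metabolism (CYP2J2, CYP2U1 and family CYP4), 6 of steroid hormone synthesis, 6 of bile acid and cholesterol metabolism, 3 of retinoid metabolism, 3 of vitamin D metabolism and 1 with no settled role, CYP20A1.

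Most of the family was dim in these cells. On the DMSO arrays 29 of 47 members in the fenbuconazole set, 30 in the imazalil set and 29 in the 2,4-D set lay below the median of all probe sets. Another 14, 13 and 14 lay between the median and the upper quartile. The same 4 members lay in the upper quartile in every set: CYP2R1, CYP20A1, CYP4V2 and CYP4F22. As a floor, the array's nonspecific-binding control with 24 G or C bases read 3.91, 4.46 and 4.51 in the 3 sets. Only 4, 6 and 6 members were above it on all 3 DMSO arrays, against 32.2%, 35.1% and 35.5% of all probe sets. The count depends on the control: 20, 20 and 19 members were above the control with 20 G or C bases, against 48.8%, 50.8% and 51.3% of all probe sets. Both read above the median of the 23 nonspecific-binding controls, which was 2.37, 2.57 and 2.65 in the 3 sets. The control with 25 G or C bases read 7.47, 7.56 and 7.65. The median of the members' DMSO means was 2.66, 3.26 and 3.22, above the median control in every set. The controls with 24 and 20 G or C bases were taken as floors after the data were seen. A percentile gives the place of a probe set's signal and not an amount of transcript, because probes differ in affinity.

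CYP2R1, the microsomal hydroxylase that makes the circulating form of vitamin D, had signals of 6.81, 6.75 and 6.74 on the DMSO arrays of the fenbuconazole set. In the imazalil set it read 7.71, 7.70 and 7.55, and in the 2,4-D set 7.84, 7.88 and 7.76. Its mean lay at percentile 84.4, 84.2 and 84.8 of all probe sets. The other vitamin D enzymes lay lower, with CYP27B1, which makes the hormone, at percentile 44.6, 47.2 and 45.6 and CYP24A1, which degrades it and is a classic target of the vitamin D receptor, at 16.9, 4.86 and 6.13. CYP20A1 read 6.43, 6.23 and 6.37 on the fenbuconazole set's DMSO arrays and 7.11 to 7.14 and 7.13 to 7.29 in the other 2 sets.

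Of the fatty acid enzymes, CYP4V2 and CYP4F22 stood apart from the rest of their group and are named here because of their values. CYP4V2 is the fatty acid hydroxylase mutated in Bietti crystalline dystrophy of the retina, and it averaged 6.44 ± 0.12, 7.27 ± 0.27 and 7.42 ± 0.30 (SD, n = 3 DMSO arrays) in the fenbuconazole, imazalil and 2,4-D sets. CYP4F22 is the hydroxylase of very long fatty acids needed for skin ceramides, and it averaged 6.48 ± 0.15, 7.20 ± 0.18 and 7.39 ± 0.14 (SD, n = 3). CYP2U1, also a fatty acid hydroxylase, averaged 3.21, 3.75 and 3.92, below the 24 G or C control in every set.

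None of the 14 xenobiotic enzymes lay in the upper quartile in any set. CYP3A4 averaged 3.21 ± 0.06, 4.53 ± 0.05 and 4.75 ± 0.11 (SD, n = 3) and was above the control on all DMSO arrays only in the 2,4-D set. CYP2B6 averaged 3.01, 3.32 and 3.22, close to the medians of all probe sets, which were 2.79, 3.34 and 3.41. CYP3A5 averaged 3.27, 3.55 and 3.68. The probe sets standing for CYP3A4 and CYP2B6 are among 8 of 47 of a design type (x_at) whose probes can also bind related transcripts.

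The steroid hormone enzymes reached at most percentile 57.8, and CYP19A1, aromatase, lay at 43.7, 34.6 and 36.6. Among bile acid and cholesterol enzymes CYP7B1, an oxysterol hydroxylase, lay at percentile 65.9, 69.8 and 69.1, and CYP27A1, the mitochondrial sterol hydroxylase, lay at 59.6, 54.7 and 54.0. The retinoid enzymes CYP26B1, which degrades retinoic acid, and CYP27C1, a retinol desaturase, lay above the median in every set, with CYP26B1 at 64.3, 63.8 and 60.4. CYP26A1, the inducible retinoic acid hydroxylase, lay at 46.4, 48.0 and 47.5.

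The partners that the enzymes need were measured brightly. All 6 measured redox partners, including POR (P450 reductase) and FDX1 (ferredoxin), lay in the upper quartile in every set, as did 6 of 7 haem synthesis enzymes. Of 13 listed receptors that control P450 genes, 10 were measured here, PXR not among them, and 3 of these did. The label of the cells was checked on marker lists: 7 of 7 measured Ewing sarcoma markers lay in the upper quartile, and 0 of 7 hepatocyte markers did, of which 1 was above the nonspecific control in each set.

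**Figure D1:**
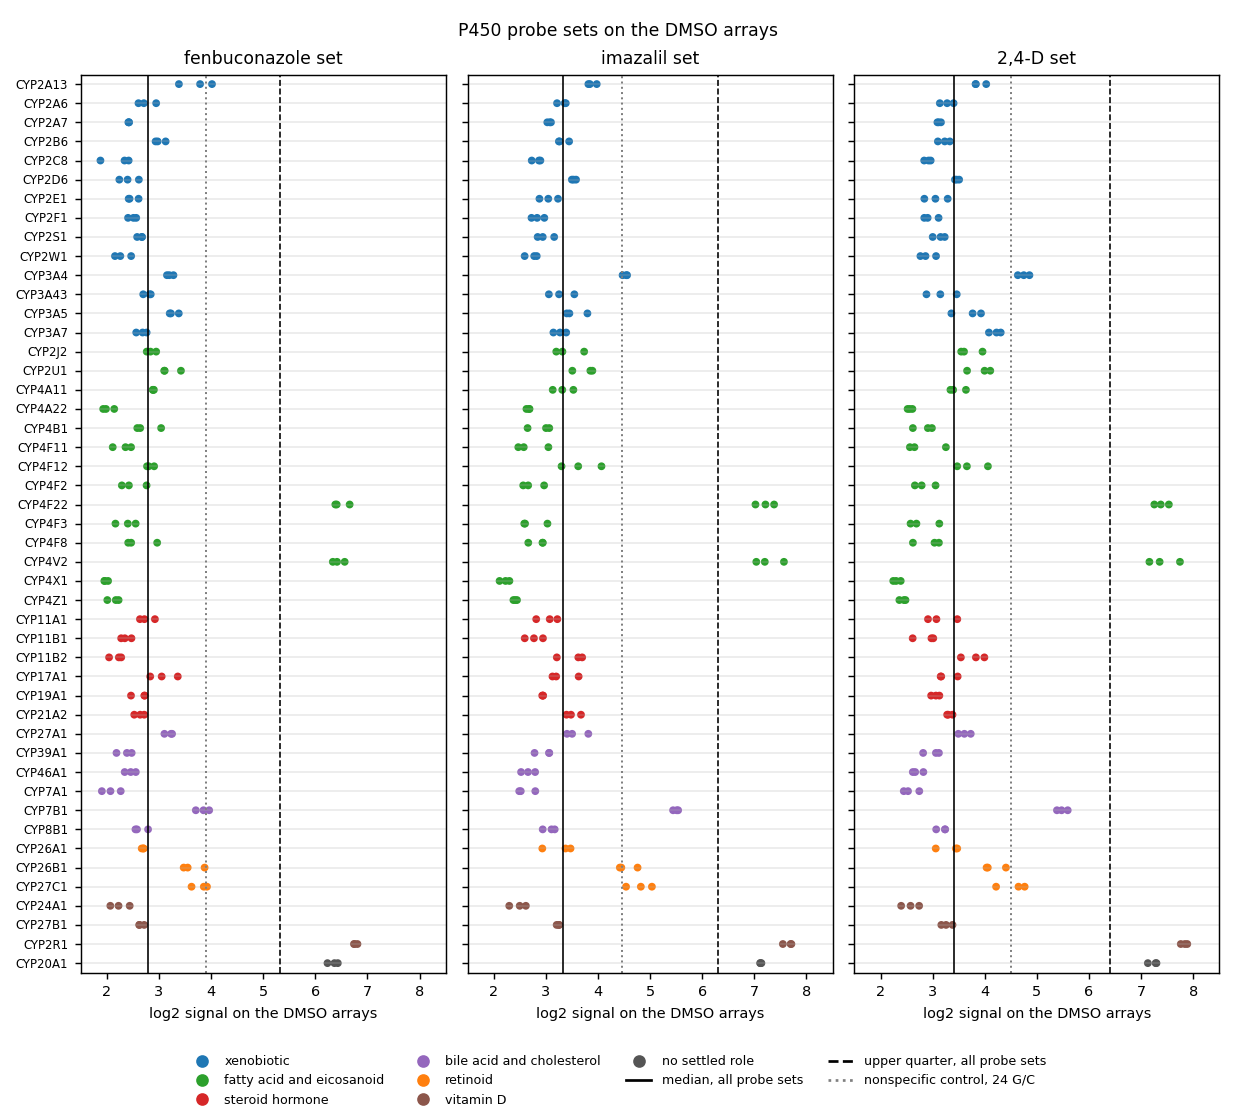
Log2 signal (horizontal axis) of the 47 P450 genes (rows, coloured by role) on the 3 DMSO arrays of each set, 1 point per array. The solid line is the median of all 54613 probe sets, the dashed line the upper quartile, and the dotted line the nonspecific-binding control with 24 G or C bases. CYP2R1, CYP20A1, CYP4V2 and CYP4F22 alone have means right of the dashed line.

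Promoters are shown of 3 bright members, of CYP26B1 and of the inducible liver enzymes CYP3A4 and CYP2B6, so that their base composition can be compared. RefSeq promoter windows of 300 bases, around an annotated start of transcription, were matched for 34 of 47 members (GRCh38.p14). Each gene was read from 1 window, and any other start of the same gene is not described. Where a gene had several windows, 1 was kept by its order in the reference alone. A printed window therefore need not hold the main start of its gene. CG dinucleotides are in capitals.
CYP2R1, chr11:14892182-14892481, minus strand: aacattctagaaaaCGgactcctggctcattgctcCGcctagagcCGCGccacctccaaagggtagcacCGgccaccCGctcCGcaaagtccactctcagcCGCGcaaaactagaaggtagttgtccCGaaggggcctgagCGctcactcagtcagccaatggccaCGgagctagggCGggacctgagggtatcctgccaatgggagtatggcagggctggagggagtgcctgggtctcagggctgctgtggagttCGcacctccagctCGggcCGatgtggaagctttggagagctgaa
CYP20A1, chr2:203239091-203239390, plus strand: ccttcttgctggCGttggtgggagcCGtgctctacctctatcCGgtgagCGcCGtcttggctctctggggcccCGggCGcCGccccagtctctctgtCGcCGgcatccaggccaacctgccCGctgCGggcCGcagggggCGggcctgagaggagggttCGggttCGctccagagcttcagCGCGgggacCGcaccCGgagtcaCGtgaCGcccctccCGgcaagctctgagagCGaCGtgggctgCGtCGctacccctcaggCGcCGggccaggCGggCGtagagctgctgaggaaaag
CYP4V2, chr4:186191317-186191616, plus strand: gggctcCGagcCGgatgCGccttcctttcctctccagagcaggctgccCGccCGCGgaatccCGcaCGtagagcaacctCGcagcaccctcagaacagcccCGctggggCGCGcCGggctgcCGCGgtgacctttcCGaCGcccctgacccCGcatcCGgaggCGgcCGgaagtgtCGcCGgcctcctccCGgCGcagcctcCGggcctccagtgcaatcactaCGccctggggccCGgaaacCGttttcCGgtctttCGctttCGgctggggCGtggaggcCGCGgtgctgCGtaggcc
CYP26B1, chr2:72147813-72148112, minus strand: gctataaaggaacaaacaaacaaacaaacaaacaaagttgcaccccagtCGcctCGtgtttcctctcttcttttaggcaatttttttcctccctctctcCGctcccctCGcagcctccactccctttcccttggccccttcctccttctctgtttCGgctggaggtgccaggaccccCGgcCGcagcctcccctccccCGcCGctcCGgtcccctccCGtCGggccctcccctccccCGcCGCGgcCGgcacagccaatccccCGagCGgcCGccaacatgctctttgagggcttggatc
CYP3A4, chr7:99784135-99784434, minus strand: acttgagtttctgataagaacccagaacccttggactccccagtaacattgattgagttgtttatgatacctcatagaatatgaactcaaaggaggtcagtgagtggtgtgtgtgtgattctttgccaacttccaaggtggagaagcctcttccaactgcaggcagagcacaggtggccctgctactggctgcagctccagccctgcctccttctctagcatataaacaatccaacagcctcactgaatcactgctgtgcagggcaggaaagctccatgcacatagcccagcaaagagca
CYP2B6, chr19:40991032-40991331, plus strand: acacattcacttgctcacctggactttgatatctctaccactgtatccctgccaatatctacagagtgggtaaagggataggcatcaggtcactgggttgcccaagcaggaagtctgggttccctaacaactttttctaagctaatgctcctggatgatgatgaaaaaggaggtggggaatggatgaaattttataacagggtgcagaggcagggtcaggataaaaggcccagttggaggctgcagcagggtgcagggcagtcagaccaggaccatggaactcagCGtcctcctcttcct
The observed over expected CG ratio was 0.568, 0.813 and 0.936 in the CYP2R1, CYP20A1 and CYP4V2 windows, 0.763 in that of CYP26B1, 0 in that of CYP3A4 and 0.0539 in that of CYP2B6. It was above 0.6 in 3 of 4 members of the upper quartile and in 8 of the other 30, against 48.8% of 35116 promoters. As a description of letters only, TATAAA on either strand was in 13 of the other 30 windows, in 0 of the 4, and in 11.5% of all promoters. AGGTCA, the hexamer many nuclear receptors bind, was in 35.3% of the 34 windows and in 13.8% of all, counted on both strands. GGAAGGAA, a repeat of the motif bound by EWSR1-FLI1, was in 0 of 34 windows and in 3.67% of all.

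No member passed the adjusted test at any concentration against DMSO. Across 27 contrasts (9 concentrations of 3 chemicals) limma's moderated test with Benjamini-Hochberg adjustment over all probe sets called 0 of 47 members each time. Only 1 probe set of any gene was called in the 27 contrasts, at 0.003 µM fenbuconazole, which is 0.00183% of those tested there, against 0% in each of the others. At an unadjusted p under 0.05, 49 of 1269 member tests passed (3.86%), against 5.14% of the tests over all probe sets. For 26 of 47 members not one of the 27 contrasts passed even that. The estimated changes ran from -0.45 to 0.47 on the log2 scale. All 1269 of their 95% intervals lay within a change of 1 in either direction on that scale, and the intervals reached from -0.73 to 0.78. Most members read below the nonspecific control with 24 G or C bases, a bright one among the array's 23. Its part in these values was not tested.

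At 10 µM against DMSO, 5 members had an unadjusted p under 0.05 after fenbuconazole (7% of all probe sets), 2 after imazalil (4.75%) and 2 after 2,4-D (3.85%), all with adjusted p above the threshold. The median SE of a member's change was 0.13, 0.12 and 0.12. The 3 arrays at 10 µM all lay above the 3 DMSO arrays in 2, 2 and 1 members (5.39%, 4.31% and 3.22% of all probe sets) and all below in 4, 2 and 2 (5.76%, 3.66% and 3.8%). None of the members with an unadjusted p under 0.05 was among the 4 in the upper quartile.

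The 3 smallest p after fenbuconazole belonged to CYP26B1, CYP4F8 and CYP2F1. CYP26B1 read 3.55, 2.92 and 3.11 at 10 µM fenbuconazole, against 3.88, 3.55 and 3.48 in DMSO, so that 1 treated array lay within the DMSO range (change -0.44, 95% interval -0.73 to -0.15, adjusted p = 0.493). CYP4F8, a prostaglandin hydroxylase of the male genital tract, read 2.09, 2.06 and 2.50 at 10 µM fenbuconazole, against 2.97, 2.47 and 2.41 in DMSO (change -0.40, -0.66 to -0.13, adjusted p = 0.518). CYP2F1, a lung enzyme, read 2.15, 2.22 and 2.09 at 10 µM fenbuconazole, against 2.56, 2.51 and 2.41 in DMSO, with no overlap (change -0.34, -0.60 to -0.08, adjusted p = 0.570). CYP4F8 and CYP2F1 had DMSO means below the median of all probe sets in every set. CYP3A43, a minor CYP3A enzyme, read 2.42, 2.43 and 2.40 at 10 µM fenbuconazole, against 2.82, 2.84 and 2.70 in DMSO, and CYP2D6 read 2.78, 3.05 and 2.66 at 10 µM fenbuconazole, against 2.24, 2.62 and 2.40 in DMSO. Their arrays did not overlap either, with changes of -0.37 (-0.65 to -0.09) and 0.41 (0.09 to 0.73) and adjusted p of 0.571 and 0.584. Against the other 8 concentrations of fenbuconazole, in place of the DMSO arrays, the changes at 10 µM were -0.09 for CYP3A43, 0.20 for CYP2D6, -0.16 for CYP4F8 and -0.33 for CYP2F1.

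After imazalil the smallest p belonged to CYP27C1, CYP27B1 and CYP4A11. CYP27C1 read 5.04, 5.22 and 5.24 at 10 µM imazalil, against 5.04, 4.54 and 4.82 in DMSO (change 0.37, 0.04 to 0.70). CYP27B1 read 3.02, 2.82 and 3.14 at 10 µM imazalil, against 3.25, 3.26 and 3.21 in DMSO (change -0.25, -0.48 to -0.01). CYP4A11, a fatty acid hydroxylase, read 3.01, 2.92 and 3.23 at 10 µM imazalil, against 3.53, 3.32 and 3.13 in DMSO (change -0.27, -0.58 to 0.03). The treated and DMSO arrays did not overlap for CYP27B1, all but touched for CYP27C1 and overlapped for CYP4A11, and all 3 had an adjusted p of 1.00. Against the other 8 concentrations of imazalil the changes at 10 µM were 0.37 for CYP27C1, -0.28 for CYP27B1 and -0.36 for CYP4A11. Their adjusted p on that contrast were 0.669, 0.669 and 0.631.

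After 2,4-D the smallest p belonged to CYP2D6, CYP19A1 and CYP7A1. CYP2D6, which oxidizes many drugs, read 3.66, 4.06 and 3.96 at 10 µM 2,4-D, against 3.51, 3.46 and 3.43 in DMSO (change 0.43, 0.16 to 0.69, adjusted p = 1.00). CYP19A1 read 2.86, 2.63 and 2.89 at 10 µM 2,4-D, against 2.97, 3.06 and 3.13 in DMSO (change -0.26, -0.45 to -0.07, adjusted p = 1.00). CYP7A1, which starts bile acid synthesis, read 2.54, 2.40 and 2.36 at 10 µM 2,4-D, against 2.53, 2.74 and 2.45 in DMSO (change -0.14, -0.31 to 0.03). CYP2D6 was estimated higher in all 27 contrasts and CYP19A1 lower in all 27, but these are not separate observations. The 9 contrasts of a set share its 3 DMSO arrays, and the imazalil and 2,4-D sets appear to share theirs. Each gene was also read from 1 probe set, out of 3 for CYP2D6 and 7 for CYP19A1. With all of them averaged, CYP19A1 changed at 10 µM against DMSO by 0.05 after imazalil and 0.04 after 2,4-D. It stayed lower after fenbuconazole, and CYP2D6 stayed higher after each chemical. Against the other 8 concentrations of 2,4-D the changes at 10 µM were 0.28 for CYP2D6, -0.10 for CYP19A1 and -0.07 for CYP7A1.

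The inducible drug-metabolizing genes did not pass the adjusted test either. CYP2B6 read 3.02, 3.02 and 3.00 at 10 µM fenbuconazole, against 3.13, 2.94 and 2.98 in DMSO, a change of 0.00 (-0.30 to 0.29). Its change was 0.06 (-0.25 to 0.37) after imazalil and 0.00 (-0.22 to 0.23) after 2,4-D. CYP3A4 read 3.32, 3.25 and 3.24 at 10 µM fenbuconazole, against 3.20, 3.28 and 3.15 in DMSO, a change of 0.06 (-0.20 to 0.32), and its changes after imazalil and 2,4-D were 0.09 (-0.16 to 0.34) and 0.07 (-0.13 to 0.28). CYP3A5 changed by -0.34 (-0.72 to 0.04) after fenbuconazole, with 2.97, 3.12 and 2.70 at 10 µM against 3.23, 3.21 and 3.38 in DMSO, and by 0.00 (-0.36 to 0.35) after imazalil and 0.02 (-0.33 to 0.36) after 2,4-D. Its fenbuconazole arrays did not overlap with DMSO, and against the other 8 concentrations the change at 10 µM was also -0.34 (-0.63 to -0.04, adjusted p = 0.757). CYP3A5 was read from 1 of its 4 probe sets. Over the alternative settings given below, its change at 10 µM fenbuconazole against DMSO ran from -0.47 to -0.04. Of the 12 genes always named, 1 is not reported here.

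For CYP2R1, CYP20A1 and CYP4F22, all bright, the intervals in the 3 sets reached from -0.38 to 0.38. CYP2R1 read 6.74, 6.84 and 6.76 at 10 µM fenbuconazole, against 6.81, 6.75 and 6.74 in DMSO, a change of 0.01 (-0.23 to 0.25). Its changes after imazalil and 2,4-D were -0.09 (-0.34 to 0.16) and -0.05 (-0.25 to 0.16). CYP20A1 changed by -0.15 (-0.38 to 0.07), -0.05 (-0.25 to 0.14) and 0.06 (-0.12 to 0.24) after fenbuconazole, imazalil and 2,4-D. CYP4V2 changed by -0.28 (-0.65 to 0.08), -0.15 (-0.38 to 0.09) and -0.10 (-0.37 to 0.17), and CYP4F22 by 0.11 (-0.16 to 0.38), 0.12 (-0.09 to 0.32) and 0.03 (-0.17 to 0.24).

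The other members always given, chosen for their roles in vitamin A, vitamin D, sterol and fatty acid metabolism, also overlapped with DMSO. CYP26A1 read 2.81, 2.75 and 2.54 at 10 µM fenbuconazole, against 2.70, 2.67 and 2.71 in DMSO, a change of 0.01 (-0.27 to 0.28), and it changed by 0.07 (-0.23 to 0.37) after imazalil and -0.03 (-0.26 to 0.20) after 2,4-D. CYP24A1 read 2.17, 2.39 and 2.28 at 10 µM fenbuconazole, against 2.23, 2.44 and 2.07 in DMSO, a change of 0.03 (-0.20 to 0.27), and it changed by -0.02 (-0.25 to 0.21) and 0.06 (-0.13 to 0.25) after imazalil and 2,4-D. The ranges of treated and DMSO arrays overlapped for both. CYP27A1 read 3.34, 3.10 and 3.10 at 10 µM fenbuconazole, against 3.25, 3.11 and 3.23 in DMSO, a change of -0.02 (-0.30 to 0.26), and it changed by -0.07 (-0.32 to 0.18) and -0.07 (-0.30 to 0.15) after imazalil and 2,4-D. CYP2U1 read 3.48, 3.29 and 2.98 at 10 µM fenbuconazole, against 3.42, 3.10 and 3.11 in DMSO, a change of 0.04 (-0.24 to 0.32), and it changed by -0.01 (-0.33 to 0.31) and 0.11 (-0.15 to 0.37).

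By role, the median changes at 10 µM lay between -0.15 and 0.07 in the 3 sets. Over all 47 members the median was -0.02, -0.02 and 0.02 after fenbuconazole, imazalil and 2,4-D, against 0.00, 0.00 and -0.01 over all probe sets. Of the other genes of the pathway, 0 of 6 redox partners, 0 of 7 haem synthesis enzymes and 0 of 10 receptors passed the adjusted test at 10 µM. PXR was not among those receptors. Of 2 P450 genes with other names (PTGIS and TBXAS1), 0 passed it. The receptor CAR (NR1I3) had the largest estimated change of these, -0.68 (-0.98 to -0.38) after fenbuconazole, with an adjusted p of 0.230. Against the other 8 concentrations of fenbuconazole its change at 10 µM was -0.09 (-0.30 to 0.13). After imazalil CAR changed at 10 µM by -0.17 against DMSO and -0.04 against the other 8 concentrations. After 2,4-D it went the other way on these contrasts, by 0.16 (-0.03 to 0.35) and 0.28 (0.13 to 0.42, adjusted p = 0.341).

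**Figure D2:**
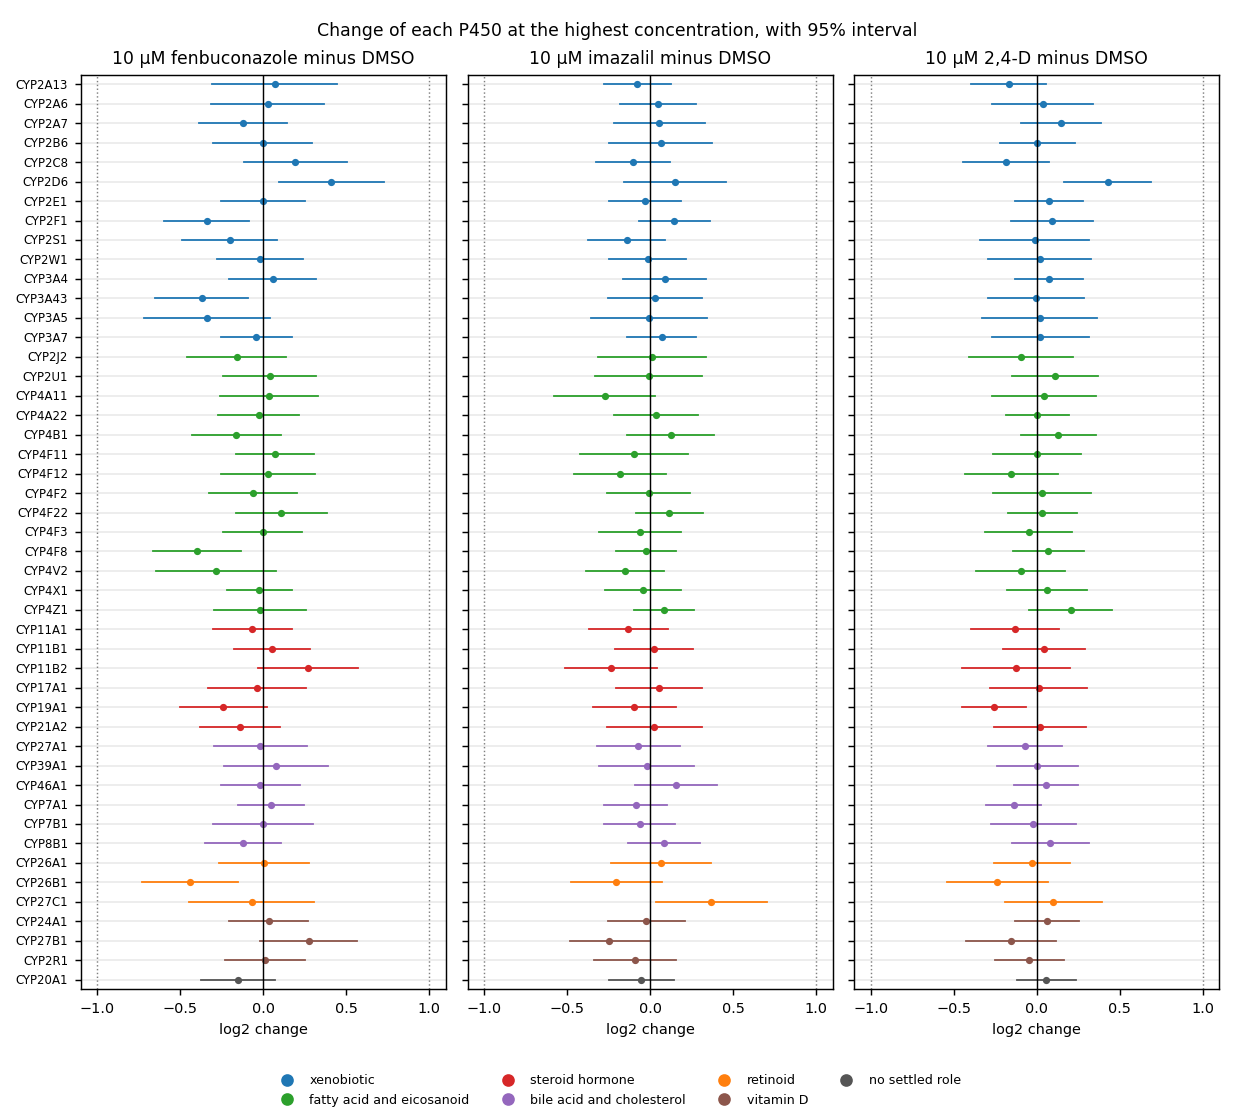
Log2 change (horizontal axis) of the 47 P450 genes (rows, coloured by role) at 10 µM minus DMSO, 1 panel per chemical, with 95% intervals from limma. All intervals lie inside the dotted lines at -1 and 1.

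Tests over the whole concentration range gave the same count. The moderated F over the 9 contrasts called 0 of 47 members in each set (0% of all probe sets), with 2, 1 and 2 members at an unadjusted p under 0.05 after fenbuconazole, imazalil and 2,4-D (4.73%, 3.38% and 3.77% of all). A slope on log10 concentration over the 27 treated arrays called 0 members (0%, 0.00183% and 0%), with 3, 1 and 2 at an unadjusted p under 0.05 (4.3%, 4.92% and 3.67%). Those after fenbuconazole were CYP2F1 (-0.07 log2 units per unit of log10 concentration), CYP27A1 (0.07) and CYP27C1 (-0.08). The 42 other probe sets of the members, from 20 genes, gave 0 adjusted calls in 1764 tests.

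**Figure D3:**
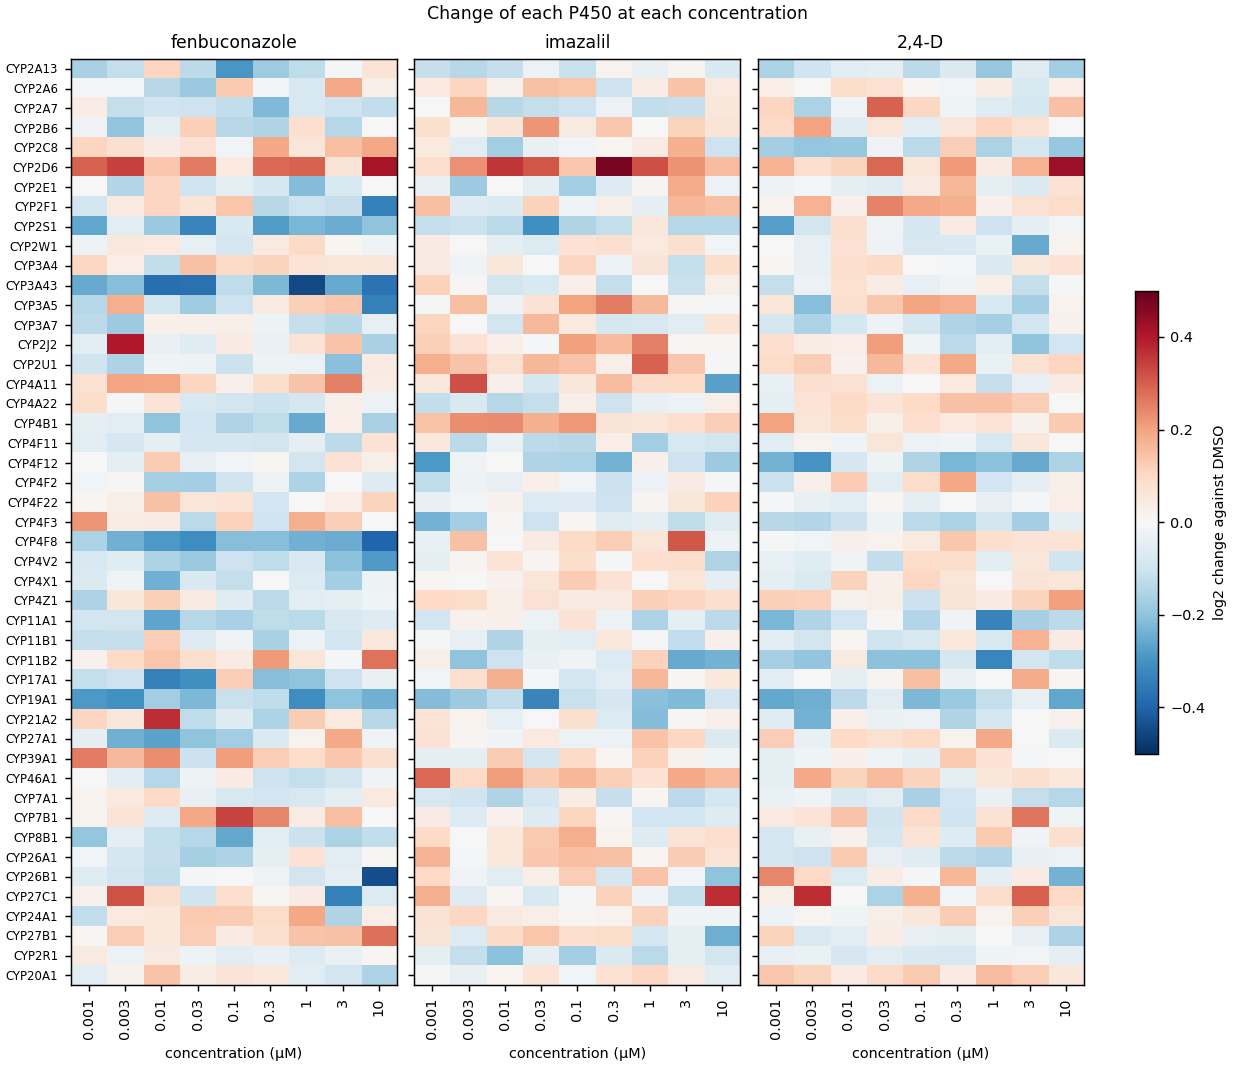
Log2 change against DMSO (colour) of the 47 P450 genes (rows, ordered by role) at each concentration in µM (columns, low to high), 1 panel per chemical. The colour scale runs from -0.5 to 0.5, and no row passes the adjusted test in any column.

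CYP26B1 is described further because it was the one member with an unadjusted p under 0.05 in all 3 sets when 10 µM was set against the mean of the other 8 concentrations, a contrast that does not use the DMSO arrays. That test called 0 of 47 members in each set, against 0.00366%, 0.0128% and 0.00549% of all probe sets, with 4, 5 and 2 members at an unadjusted p under 0.05 (6.13%, 5.78% and 6.46%). The smallest p belonged to CYP26B1 after fenbuconazole, CYP4A11 after imazalil and CYP2D6 after 2,4-D. CYP26B1 changed by -0.39 (-0.60 to -0.17, adjusted p = 0.361) after fenbuconazole, -0.23 (-0.43 to -0.03, adjusted p = 0.832) after imazalil and -0.30 (-0.52 to -0.07, adjusted p = 0.648) after 2,4-D. Fenbuconazole arrays at 10 µM read 3.55, 2.92 and 3.11, against 3.24 to 3.80 (median 3.58) on the 24 arrays at lower concentrations. Imazalil arrays at 10 µM read 4.39, 4.17 and 4.46, against 4.32 to 4.83 (median 4.54). For 2,4-D the arrays at 10 µM read 3.53, 4.02 and 4.23, against 3.93 to 4.58 (median 4.19). In each set 1 or 2 arrays fell below all 24 and the others lay inside their range.

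After these values were seen, the 3 contrasts were averaged in 1 fit over the 81 treated arrays. CYP26B1 then changed at 10 µM by -0.30 on the log2 scale (-0.43 to -0.18, adjusted p over all probe sets = 0.0149), 1 of 47 members called against 0.13% of all probe sets, and 5 of 47 members had an unadjusted p under 0.05 (8.95% of all). The test was chosen because CYP26B1 was low in each set, so its p is too small and it is no independent evidence. The call was lost without any 1 replicate number (adjusted p = 0.0878, 0.345 and 0.107 without replicates 1, 2 and 3) and without any 1 chemical (adjusted p = 0.479, 0.0920 and 0.0860 without fenbuconazole, imazalil and 2,4-D). It was kept in the other settings in which this fit was run, but these reuse the same arrays and are no independent evidence either. A second, dimmer CYP26B1 probe set changed by -0.09 (-0.26 to 0.08), 0.05 (-0.16 to 0.27) and -0.06 (-0.29 to 0.16) on the same contrast. Within every chemical and replicate number the serial number in the sample description fell at each of 8 steps up in concentration, so a concentration and its place in that order cannot be told apart.

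**Figure D4:**
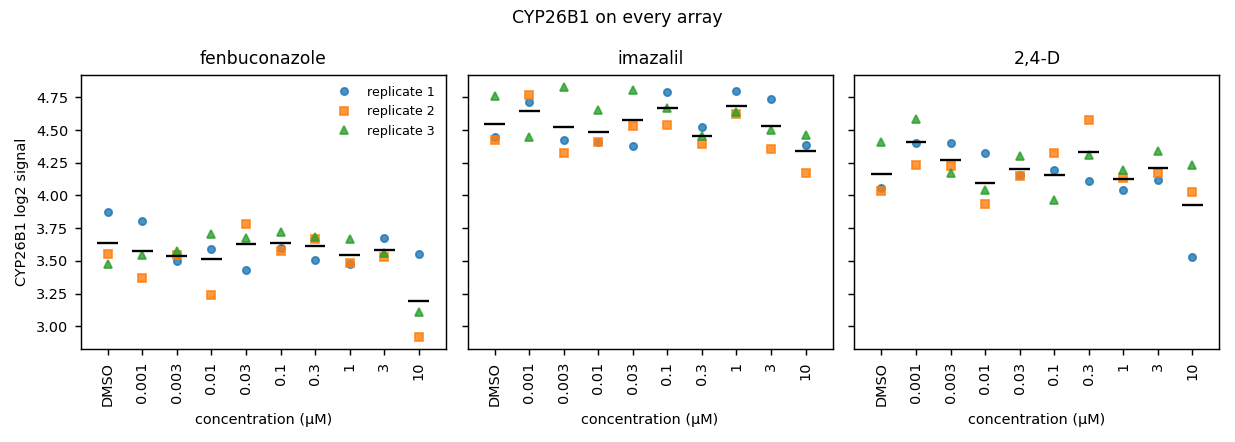
CYP26B1 log2 signal (vertical axis) on every array by concentration in µM, with DMSO at the low end, 1 panel per chemical. Points are the 3 arrays of a concentration, marked by replicate number, and bars their mean. The lowest array of each panel is at 10 µM.

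The chemicals were also compared with each other at 10 µM, as differences of their changes against DMSO over 3 pairs, with p adjusted over all probe sets and pairs. Of 47 members, 0 passed the test of a difference between fenbuconazole and imazalil, which carry a triazole and an imidazole ring, or between either and 2,4-D, which has no azole ring, against 0% of all probe sets. At 10 µM, unadjusted p were under 0.05 for 5 members between fenbuconazole and imazalil (4.56% of all), 4 between fenbuconazole and 2,4-D (5.06%) and 0 between imazalil and 2,4-D (0.859%). The imazalil and 2,4-D DMSO columns entered this fit as separate samples although they appear to be the same 3 arrays, so n is larger than the number of distinct arrays and the interval for that pair counts the DMSO spread of both sets. The largest difference was that of CYP27B1, which changed by 0.27 after fenbuconazole and -0.25 after imazalil, a difference of 0.52 (0.14 to 0.90, adjusted p = 1.00). CYP4F8 changed by -0.40 after fenbuconazole and 0.07 after 2,4-D, a difference of -0.47 (-0.77 to -0.16, adjusted p = 1.00). The members' intervals for such differences reached from -0.92 to 0.94.

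The replicate numbers were set against each other over the 27 treated arrays of a chemical with concentration in the model. This called 0.797%, 1.85% and 2.88% of all probe sets in the fenbuconazole, imazalil and 2,4-D sets, and 0 of 47 members. In each set 5 members had an unadjusted p under 0.05, against 12.1%, 16.4% and 18% of all probe sets. The smallest adjusted p were 0.0890 for CYP2R1 in the fenbuconazole set, 0.0790 for CYP27B1 in the imazalil set and 0.0594 for CYP2A13, a nicotine and nitrosamine oxidizing enzyme of the airways, in the 2,4-D set.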

How the data were processed

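The authors deposited log2 values: array signals summarized and normalized by RMA in Partek (the versions are not given in the sources used here), separately for the 30 columns of each chemical, so each test stays within a set except the differences between chemicals, fitted over all 90 columns with the DMSO columns of each set as separate samples, and the test over the 81 treated arrays. No depth applies to arrays, and the 3 arrays per concentration limit the precision. Of 54613 probe sets left after 102 controls, 40914 had 1 gene symbol in the platform annotation, 864 several and 12835 none. Moderated tests were run with limma 3.58.1 in R 4.3.3, with Benjamini-Hochberg adjustment over all probe sets, a threshold of 0.05 and 95% intervals. The methods describe replicates as separate experiments on separate batches of cells. No label says that a replicate number names 1 batch, so the main fits have no block. Members and lists were chosen with earlier results of these data known. Values per array are given for members passing a test and for the 3 smallest p of each chemical at 10 µM against DMSO. For 12 genes named whatever their values, of which 11 were measured, values per array are given for some groups only. CYP4V2, CYP4F22, CYP7B1, CYP3A43 and CYP2A13 were named after their values were seen. The test over 81 treated arrays, its fits without 1 chemical, the pooling of the other 8 concentrations and the control probe sets as a floor were added after seeing the data. The contrasts with DMSO and with the other 8 concentrations, the F and the test over 81 arrays were tested on simulated data. Promoters were read from RefSeq with Python 3.11.15.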

Additional observations from a re-analysis of the deposited data

How the results depend on the processing

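The alternatives planned for this work were 1 probe set per gene, dim ones removed, a replicate block, a trended robust variance and a second quantile normalization. The others were equal array medians, all probe sets of a gene averaged and each replicate number left out. Pooling the other 8 concentrations as 1 group was added after seeing the data. In none of these was a tested member called against DMSO, over all concentrations, by slope, at 10 µM within a chemical, or between chemicals. Without dim probe sets only members above the median mean signal were tested, and most members lay below the median on the DMSO arrays. No label says that a replicate number marks a shared batch, so the main fits did not pair the arrays by number. Correlations of same-numbered deviations averaged 0.042, 0.069 and 0.078 in the fenbuconazole, imazalil and 2,4-D sets and ran down to -0.145. As hints that the numbers may mark batches, correlations between different numbers averaged -0.021, -0.034 and -0.039, and 24, 28 and 30 of 30 arrays correlated best with their own number. The serial numbers in the sample descriptions also ran without a gap within a replicate number, across DMSO and the 3 chemicals. They were 169 to 196, 197 to 224 and 225 to 252 for replicates 1, 2 and 3. The methods describe replicates as experiments on separate batches of cells. With the replicate block the smallest adjusted p of a member at 10 µM against DMSO was 0.405, 0.817 and 0.838 after fenbuconazole, imazalil and 2,4-D, and 4, 2 and 0 probe sets of any gene were called. The block changed no call of a member. The difference between replicate numbers moved most, against 0 members called in the values above. Without dim probe sets it called 1 member (fenbuconazole) and 3 (2,4-D). With 1 probe set per gene it called 1, 1 and 3 (fenbuconazole, imazalil, 2,4-D). The trended robust variance gave 2 (2,4-D), and averaged probe sets gave 1 (imazalil) and 2 (2,4-D). Without the arrays at 10 µM it called 1 (2,4-D). Leaving out dim probe sets, 1 probe set per gene and averaged probe sets all test fewer rows. Otherwise the cause was not tested. The test of the 3 chemicals together called 0 members without any 1 replicate (0 to 0) or without fenbuconazole (0), imazalil (0) or 2,4-D (0), against 1, with the CYP26B1 change between -0.34 and -0.17 over all settings run, the last with its 2 probe sets averaged. Changes at 10 µM against DMSO that turned sign were of members that did not pass the adjusted test: after a second quantile normalization CYP2B6 after 2,4-D (-0.00446), with equal array medians CYP2B6 after 2,4-D (-0.00352), with the mean of all of a gene's probe sets CYP2U1 after fenbuconazole (-0.0751), CYP19A1 after imazalil (0.0487), CYP2R1 after imazalil (0.147), CYP3A4 after imazalil (-0.0128), CYP3A5 after imazalil (0.0808), CYP19A1 after 2,4-D (0.0368), CYP2R1 after 2,4-D (0.0696), CYP4A11 after 2,4-D (-0.0312). Of these, CYP19A1 after 2,4-D (-0.26) had an unadjusted p under 0.05 before its 7 probe sets were averaged. Over the settings, the probe sets of any gene called after fenbuconazole, imazalil and 2,4-D numbered 0 to 6, 0 to 4, 0 to 0 at 10 µM against DMSO (0, 0 and 0 in the values above), 0 to 20, 0 to 12, 0 to 5 against the other 8 concentrations (2, 7 and 3), 298 to 854, 523 to 1929, 512 to 3013 between replicate numbers (435, 1008 and 1575), and 5 to 193 for the 3 chemicals together (71). Leaving out 1 replicate number turned others, with these ranges. After fenbuconazole they were CYP27C1 -0.175 to 0.0058, CYP27A1 -0.0681 to 0.0378, CYP26A1 -0.0423 to 0.094, CYP24A1 -0.0566 to 0.078, CYP7A1 -0.0714 to 0.203, CYP4A11 -0.00169 to 0.0725, CYP2B6 -0.0456 to 0.0504, CYP2U1 -0.035 to 0.125, CYP2R1 -0.0245 to 0.0497. After imazalil they were CYP27A1 -0.155 to 0.0903, CYP3A4 -0.0131 to 0.157, CYP26A1 -0.0497 to 0.212, CYP24A1 -0.0879 to 0.0173, CYP7A1 -0.168 to 0.0271, CYP4F8 -0.112 to 0.0266, CYP3A5 -0.191 to 0.314, CYP2B6 -0.142 to 0.185, CYP20A1 -0.0943 to 0.0313, CYP2U1 -0.0489 to 0.0198, CYP2R1 -0.174 to 0.0294. After 2,4-D they were CYP27A1 -0.164 to 0.0131, CYP3A4 -0.139 to 0.235, CYP26A1 -0.194 to 0.0684, CYP24A1 -0.0463 to 0.167, CYP4F8 -0.00388 to 0.11, CYP4A11 -0.0636 to 0.189, CYP2B6 -0.113 to 0.164, CYP2U1 -0.118 to 0.254, CYP4V2 -0.303 to 0.0164, CYP2R1 -0.146 to 0.068, CYP4F22 -0.0019 to 0.0675. The 3 arrays per concentration and signals near the nonspecific control limit what these data can show for most members.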
